A study of Mus musculus with 2116 samples.

Results

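Proteasome subunit genes were examined in single CD4+ T cells of the mouse spleen. The genes were taken as every symbol in the count table that begins with Psma, Psmb, Psmc, Psmd or Psme and has at least 20 UMIs (unique molecular identifiers, each standing for 1 captured mRNA molecule) over both libraries. Of 45 such symbols, 42 passed, among 23725 genes in the table and 8988 genes with at least 20 UMIs. The 3 others were Psma8 and Psme2b, with 0 UMIs in both libraries, and Psmc3ip, which held 2 UMIs in one library and 13 in the other and encodes a recombination protein that is not a subunit. The lowest member that passed was Psmb11, with 38 UMIs. The rule uses symbols and total UMIs, not a difference between the libraries, and several members by symbol, such as Psmd5, Psmd9 and Psmd10, encode assembly factors.

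The cells came from male B6 Foxp3-Ires-Gfp mice aged 8 months, in which GFP is made from the Foxp3 locus, and both groups share that reporter, the strain, the sex and the age. Live TCRb+ CD4+ cells were sorted as regulatory T cells (Treg, Foxp3+) or conventional T cells (Tconv, Foxp3-), although the sort description names a GFP+ gate for both populations, and were encapsulated by inDrops, a droplet method that primes from poly(A) tails. The Treg library held 816 cells and 1468203 UMIs, the Tconv library 1300 cells and 2002752 UMIs. There was 1 library per group and no animal is named, so no value below has a replicate check, no test between groups was possible, and every interval is a 95% interval that covers counting error only.

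The labels were checked first. Foxp3 held 558 UMIs in the Treg library and 6 in the Tconv library, and all 10 Treg markers were higher in the Treg library. Median depth was 1688.5 UMIs per Treg cell and 1510.5 per Tconv cell, and the libraries were sequenced to 31.9 and 19.1 mapped reads per UMI. Ribosomal protein genes took 25.6% of Treg and 32.0% of Tconv UMIs, and 12 cell barcodes occurred in both libraries. Cells with at least 3 UMIs of markers of another cell type made up 5.76% of the Treg library (47 cells) and 2.23% of the Tconv library (29 cells). B cell genes reached 3 UMIs in 24 Treg and 12 Tconv cells, and myeloid genes in 22 and 12. Of these markers, the macrophage genes C1qa, C1qb, Cd5l and Vcam1 and the globin genes Hba-a2, Hbb-bs and Hbb-bt were at 0 in the Tconv library, and the plasma cell gene Jchain was at 0 in the Treg library. Other myeloid and erythroid genes went the other way: Itgam held 4 Treg and 23 Tconv UMIs, S100a9 0 and 12, and Car2 6 and 23.

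The proteasome is the protease that degrades most ubiquitin-tagged proteins of a cell. Its 20S core is a barrel of outer alpha rings and inner beta rings. Of the beta subunits of the constitutive core, only those encoded by Psmb5, Psmb6 and Psmb7 carry the active sites. The 19S regulatory particle caps the barrel: a base of ATPases (Psmc genes) unfolds the substrate and a lid (Psmd genes) removes its ubiquitin. In lymphocytes and under interferon, Psmb8, Psmb9 and Psmb10 take the places of Psmb5, Psmb6 and Psmb7 and give the immunoproteasome, which favours peptides that fit MHC class I. PA28 (Psme1 and Psme2) and PA200 (Psme4) are alternative caps that open the barrel without ATP.

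The members together took 0.528% of Treg and 0.478% of Tconv UMIs (7748 and 9566 UMIs). Levels are given below as counts per 1000000 UMIs of a library (CPM), and ratios as log2 of the CPM in the Treg library over the Tconv library. Their median over the 42 members was 0.13, and over all 8988 genes it was 0.14. Members above 0 numbered 29 of 42, beside 61.2% of all genes, and members above the all-gene median numbered 20 of 42. At least 1.5-fold higher in the Treg library were 5 members (Psmc6, Psmb11, Psmd10, Psmb9 and Psmd5), beside 20.6% of all genes. At least 1.5-fold lower was 1 member, Psme4, beside 9.16% of all genes. The proteasome as a whole thus lay at the all-gene level, and what differed among the members was the order of the groups. A change of scaling moves all genes alike and leaves that order as it is, but it moves the zero line: the all-gene median was 0.01 with ribosomal protein genes left out of the totals and -0.02 with TMM factors (edgeR's trimmed mean scaling), and the member median was then -0.00 and -0.03. The sums of the structural beta genes, the non-ATPase base, the lid, the regulatory particle and Psme3, which lay just above 0, turned just below it under both scalings, and the ATPases did so under TMM factors. The number of members at least 1.5-fold higher was between 2 and 8 over the alternatives for scaling and cells.

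**Figure D1:**
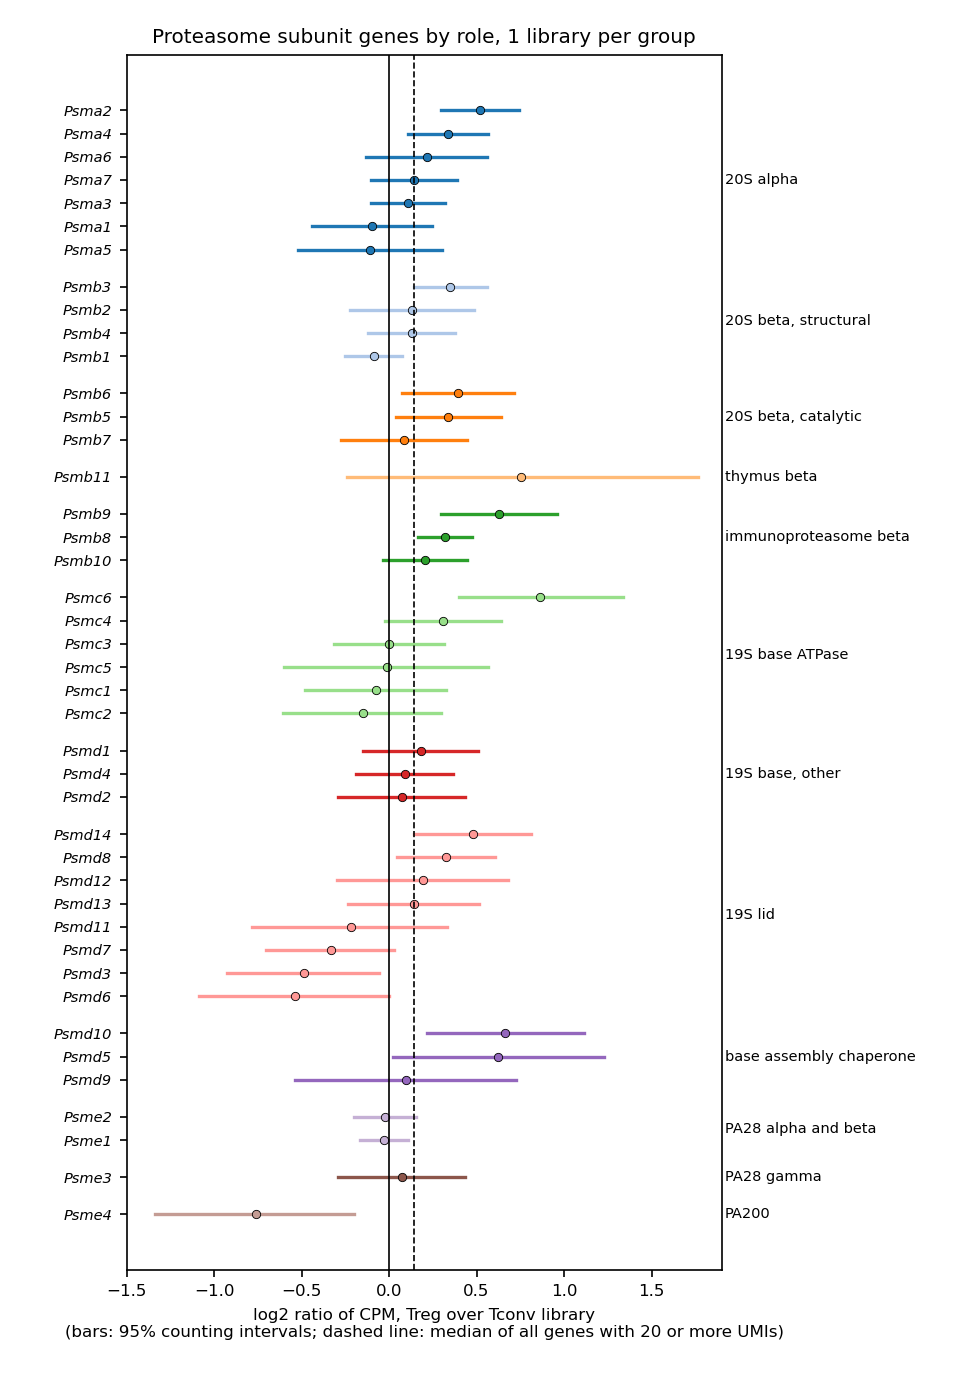
Each point is 1 gene's log2 ratio of CPM in the Treg over the Tconv library, with its 95% counting interval, grouped by role. The solid line marks 0 and the dashed line the all-gene median of 0.14; the intervals of Psma2, Psmb3, Psmb8, Psmb9, Psmc6, Psmd10 and Psmd14 lie wholly above the dashed line and those of Psmb1, Psmd3, Psmd6, Psmd7, Psme1 and Psme4 wholly below it.

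Of the role groups with over 1000 UMIs in each library, the immunoproteasome subunits had the highest ratio. Smaller groups lay higher or close to them: the base chaperones at a log2 ratio of 0.51 and Psmb11 at 0.75. The constitutive catalytic partners were at 0.29 (0.10 to 0.47), a value within the immunoproteasome interval given next. Summed, Psmb8, Psmb9 and Psmb10 reached 736 CPM in the Treg library (693 to 782) and 585 in the Tconv library (552 to 619), a log2 ratio of 0.33 (0.21 to 0.45). The sum was higher in the Treg library and the counting intervals of the levels did not overlap. Psmb8, the inducible chymotrypsin-like subunit, held the most UMIs of the group, 651 in the Treg and 711 in the Tconv library, or 443 and 355 CPM (log2 0.32, 0.17 to 0.48). Psmb9, which replaces the caspase-like Psmb6, had the largest ratio, with 164 and 145 UMIs, or 112 and 72.4 CPM (0.63, 0.29 to 0.96). Psmb10, which replaces the trypsin-like Psmb7, had 266 and 315 UMIs, or 181 and 157 CPM, and its interval included 0 (0.20, -0.04 to 0.44). Psmb8, Psmb9 and Psmb10 stayed above 0 under the other scalings, at 0.17, 0.47 and 0.05 in that order with TMM factors. With those cells removed that carried markers of another cell type, the group's ratio was 0.36. Against the 20S core genes in the same libraries, the fold of the immunoproteasome group was 1.11 times as large (1.01 to 1.23). No scaling of the libraries can move that ratio, but its interval, like all intervals on UMIs here, treats UMIs as independent. UMIs clumped within cells, with a variance over the mean of 1.59 (Treg) and 1.47 (Tconv) for the core, so such intervals are too narrow. The low end of 1.01 is therefore not firm. By the share of thinned cells with the gene, described below, the log2 ratios were 0.13 for Psmb8, 0.80 for Psmb9 and -0.15 for Psmb10.

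Psmb8 and Psmb9 lie in the MHC class II region of chromosome 17 (GRCm38, Psmb8 at chr17:34197721-34201454 on the plus strand and Psmb9 at chr17:34181987-34187764 on the minus strand), beside the peptide transporter genes Tap1 and Tap2, and Psmb10 lies at chr8:105935735-105938444. The annotated Psmb9 gene overlaps Tap1 on the other strand and Psmb8 overlaps the gene model Gm20496, and whether the counting used strand is not given in the sources used here. Tap1 (432 and 411 UMIs, log2 0.52) and Tap2 (263 and 256 UMIs, 0.49) were also higher in the Treg library. The 120 bases before the RefSeq start of the inducible genes and of 2 constitutive partners are shown because these pairs exchange with each other in the core. They are from GRCm38.p6, written 5′ to 3′ on the gene's strand, and capitals mark a gamma-activated site (letters TTCNNNGAA) in Psmb8 and an antioxidant response element (TGACNNNGC) in Psmb5 and Psmb6.
Psmb8, chr17:34198075-34198194, plus strand: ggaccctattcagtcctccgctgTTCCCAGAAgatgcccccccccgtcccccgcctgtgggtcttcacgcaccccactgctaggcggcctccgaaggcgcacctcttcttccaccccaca
Psmb9, chr17:34187331-34187450, minus strand: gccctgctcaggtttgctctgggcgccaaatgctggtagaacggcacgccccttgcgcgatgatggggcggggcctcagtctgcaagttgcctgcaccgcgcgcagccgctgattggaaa
Psmb10, chr8:105938393-105938512, minus strand: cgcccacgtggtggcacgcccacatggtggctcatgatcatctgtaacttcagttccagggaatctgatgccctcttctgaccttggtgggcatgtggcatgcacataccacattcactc
Psmb5, chr14:54617996-54618115, minus strand: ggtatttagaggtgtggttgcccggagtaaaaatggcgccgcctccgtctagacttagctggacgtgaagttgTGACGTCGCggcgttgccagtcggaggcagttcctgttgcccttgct
Psmb6, chr11:70525237-70525356, plus strand: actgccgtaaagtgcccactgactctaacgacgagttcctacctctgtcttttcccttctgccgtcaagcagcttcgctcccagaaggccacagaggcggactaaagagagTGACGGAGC
Psmb8 held the gamma-activated letters 97 bases before its start, and no other member with a window did, against 7.02% of all 32851 windows of 250 bases. The antioxidant letters lay 47 bases before the start of Psmb5 and 9 before that of Psmb6, and were found in 5 of 36 members with a window (also Psmc6, Psmd9 and Psmd12), against 10.2% of all windows. Interferon-stimulated response letters (GAAANNGAA) were in 3 of 36 (Psmb3, Psmd4 and Psmd9), against 7.13%. Both strands were searched, and a match is a description of letters in a window. RefSeq starts Psmb5, Psmb8, Psmb9 and Psmb10 further downstream than GENCODE does, so these windows lie partly or wholly within the annotated genes. The printed Psmb6 window lies outside its annotated gene.

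The exchange itself was followed as the inducible share of each catalytic pair. Psmb8 made up 78.4% of Psmb8 and Psmb5 UMIs in the Treg library (651 of 830, Clopper-Pearson interval 75.5 to 81.2%) and 78.7% in the Tconv library (711 of 904, 75.8 to 81.3%). Psmb9 made up 50.3% of its pair with Psmb6 in the Treg library (44.7 to 55.9%) and 46.3% in the Tconv library (40.7 to 52.0%). Psmb10 made up 69.6% of its pair with Psmb7 in the Treg library (64.7 to 74.2%) and 67.9% in the Tconv library (63.4 to 72.1%). The shares overlapped between the libraries in each pair, with odds ratios of 0.99 (0.78 to 1.25), 1.17 (0.85 to 1.62) and 1.08 (0.80 to 1.47). The constitutive partners were thus also above 0: Psmb5 had 179 and 193 UMIs (log2 0.34), Psmb6 162 and 168 (0.40) and Psmb7 116 and 149 (0.09, with an interval that includes 0). At this depth a difference in exchange smaller than these intervals was not detectable, and a share may not be compared between pairs, because genes differ in capture. Psmb7 shares exons with the annotated Nek6 gene, so its UMIs are less certain. Psmb5 has 2 near-identical annotated copies, neither of them in the count table.

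**Figure D2:**
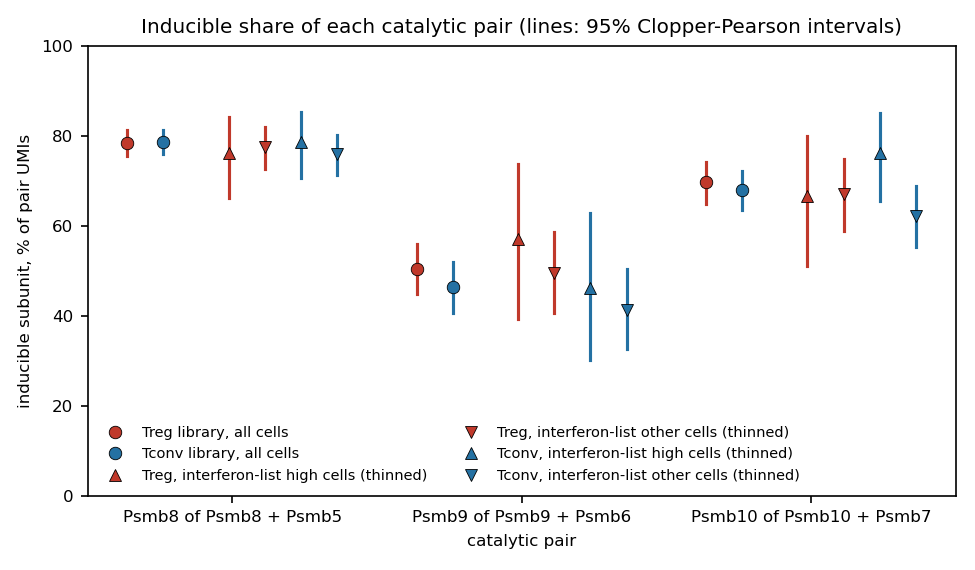
The y axis gives UMIs of the inducible subunit as % of its pair, with 95% Clopper-Pearson intervals: circles are whole libraries, triangles are thinned cells high (up) or not high (down) in an interferon-response list. Treg and Tconv circles lie within each other's intervals in all 3 pairs.

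Summed, the 14 core genes were at a log2 ratio of 0.18 (0.11 to 0.24), an interval that includes the all-gene median of 0.14. Single genes did not all stay near it: the intervals of Psma2 and Psmb3 lay above that median and that of Psmb1 below. The 7 alpha genes summed to 1074 CPM in the Treg and 924 in the Tconv library (log2 0.22, 0.12 to 0.31). Psma2 had the highest alpha ratio, with 347 and 330 UMIs (0.52, 0.30 to 0.74), Psma3 the most UMIs (339 and 429, 0.11) and Psma5 the lowest ratio (85 and 125 UMIs, -0.11). Alpha subunits form the gate of the barrel. Their ratios here spanned 0.63 log2 units between Psma2 and Psma5, but the intervals of these 2 genes overlapped (Psma5 -0.52 to 0.30). The 4 structural beta genes summed to 854 and 801 CPM (0.09, -0.01 to 0.20). Psmb1, with 520 and 754 UMIs the most counted core gene, was slightly lower in the Treg library (-0.09, -0.25 to 0.07), and Psmb3 was higher (370 and 396 UMIs, 0.35, 0.14 to 0.56). The 3 constitutive catalytic genes summed to 311 and 255 CPM (0.29, 0.10 to 0.47). Psmb11, the catalytic subunit known from cortical epithelial cells of the thymus, was counted once each in 21 Treg and 17 Tconv cells and never more than 1 UMI in a cell (0.75, -0.24 to 1.77). Its gene, at chr14:54621433-54629556, lies next to Psmb5 at chr14:54614119-54618022.

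The 17 genes of the 19S regulatory particle summed to 1248 and 1172 CPM (log2 0.09, 0.00 to 0.18), and the fold relative to the core was 0.941 (0.871 to 1.02), an interval that includes 1. Among the 6 ATPases, which form the unfolding ring, Psmc6 stood highest with 92 and 69 UMIs (0.86, 0.40 to 1.33), Psmc3 had the most UMIs (149 and 203, 0.00) and Psmc2 was lowest (70 and 106, -0.15). The other 5 ATPases ranged from -0.15 to 0.31. Of the 3 further base genes, Psmd1 was highest (142 and 171 UMIs, 0.18), Psmd2 lowest (114 and 148, 0.07), and the ubiquitin receptor Psmd4 had the most UMIs (191 and 245, 0.09).

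The lid held both directions. Its 8 genes summed to 539 and 525 CPM (log2 0.04, -0.10 to 0.17). Psmd14, the metalloprotease that cuts ubiquitin chains from the substrate, had 151 and 148 UMIs (0.48, 0.14 to 0.81). Psmd8 had the most UMIs, 204 and 222 (0.33, 0.04 to 0.61). On the other side were Psmd6 with 45 and 89 UMIs (-0.54, -1.09 to -0.00), Psmd3 with 69 and 132 (-0.49, -0.93 to -0.06) and Psmd7, the partner of Psmd14 in the lid, with 100 and 172 (-0.33, -0.70 to 0.03). Psmd14 and Psmd7, 2 subunits that sit together as a dimer, had ratios of opposite sign, but the interval of Psmd7 included 0. By the share of thinned cells with the gene, described below, both ratios were below 0. They were -0.05 (-0.68 to 0.56) for Psmd14 and -0.26 (-0.86 to 0.32) for Psmd7. The lid against the core gave a ratio of folds of 0.908 (0.818 to 1.01).

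The 3 assembly chaperones of the base, which are not part of the finished particle, summed to 126 and 88.4 CPM (log2 0.51, 0.21 to 0.82). Psmd10 (gankyrin) had 93 and 80 UMIs (0.67, 0.22 to 1.11), Psmd5 had 52 and 46 (0.62, 0.02 to 1.23) and Psmd9 had 40 and 51 (0.10, -0.54 to 0.72). Relative to the base and lid their fold was 1.34 (1.07 to 1.67). With equal weight per cell the ratio of Psmd10 was 0.35.

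The activators differed from the immunoproteasome. PA28 alpha and beta, which interferon induces together with the immunoproteasome, had ratios near 0 in CPM: Psme1 had 727 and 1012 UMIs, or 495 and 505 CPM (log2 -0.03, -0.17 to 0.11), and Psme2 had 460 and 638, or 313 and 319 CPM (-0.02, -0.20 to 0.15). Their sum was at -0.03, at -0.16 with ribosomal protein genes left out of the totals and at -0.18 with TMM factors, and the interval of Psme1 lay below the all-gene median of 0.14. Their fold was 0.779 times that of the immunoproteasome group (0.696 to 0.872) and 0.868 times that of the core (0.794 to 0.948). Both genes lie close together on chromosome 14, Psme1 at chr14:55578123-55581529 and Psme2 at chr14:55587441-55591113. Psme2 has a near-identical copy, Psme2b, which held 0 UMIs, and Psme1 has 1, Gm7776, which is not in the count table. Several other members have such copies, among them Psmb3 (4), Psma3 (3), Psmb5 (2) and Psmd11 (2). Of the copies of these genes, only A730017L22Rik, a copy of Psmd11, is in the count table. Psme3, the nuclear PA28 gamma, had 115 and 149 UMIs (0.07, -0.29 to 0.43), and 0.67 after thinning of the cells described below. Psme4, which encodes PA200, was 1.5-fold or more lower in the Treg library, with 39 and 90 UMIs, or 26.6 and 44.9 CPM (-0.76, -1.34 to -0.20). Its fold was 0.523 times that of the core (0.348 to 0.771), and it lay between -0.61 and -0.91 under the 8 alternatives for scaling and cells.

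**Figure D3:**
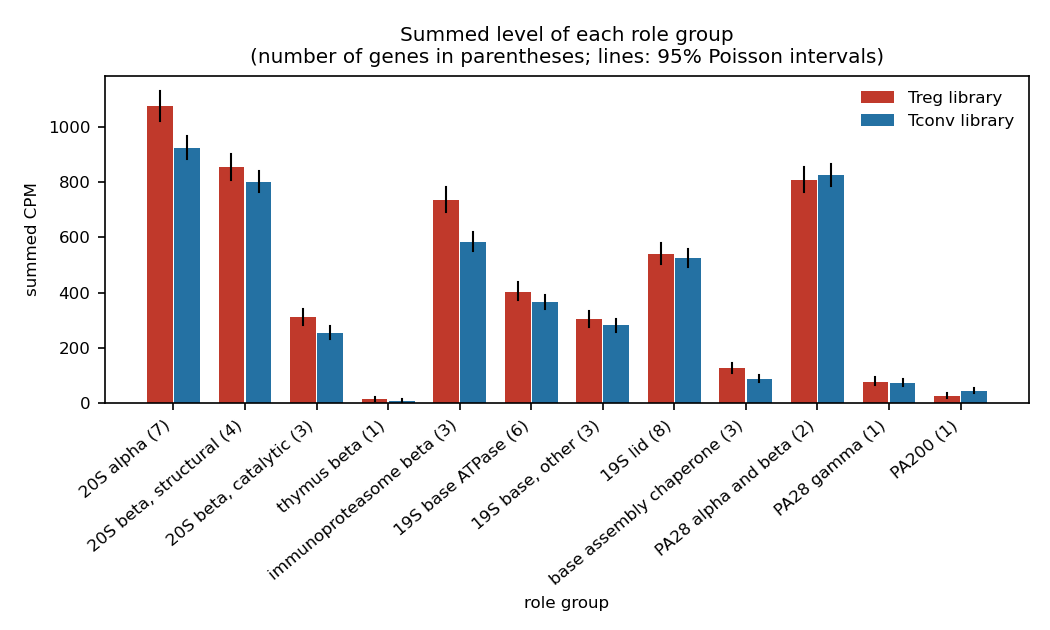
Bars give the summed CPM of each role group in the Treg and Tconv libraries, with 95% Poisson intervals, and the number of genes stands after each name. The Treg bar is higher by more than the intervals for the alpha, constitutive catalytic, immunoproteasome and base chaperone groups, and the PA28 alpha and beta bars stand at 808 and 824 with overlapping intervals.

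A ratio of UMIs can come from more cells that hold a gene or from more UMIs in each. To separate these, every cell with at least 1000 UMIs was thinned at random to 1000 (738 Treg and 1108 Tconv cells, with 78 and 192 shallower cells left out). In thinned cells, UMIs per cell that held the gene were higher in the Treg library for 35 of 42 members, beside 70.2% of all genes, with medians of 0.12 (members) and 0.13 (all genes) on the log2 scale. The ratio of the share of cells with the gene had medians of 0.04 and -0.01. Counted out of all UMIs of a cell, the general shift of the Treg library thus lay in the UMIs per positive cell. The size of that shift depends on the scaling. In CPM of whole libraries the all-gene median was 0.14, and 0.01 with ribosomal protein genes left out of the totals. The higher number of mapped reads per UMI in the Treg library (31.9 against 19.1) moves with the higher UMIs per positive cell, and its part was not tested. Psmb9 differed in cells: 74 of 738 Treg cells (10.03%) and 64 of 1108 Tconv cells (5.78%) held it, a log2 ratio of 0.80 (0.29 to 1.30), with 1.11 and 1.09 UMIs in each such cell. Psmb8 was in 32.2% and 29.5% of cells (0.13, -0.12 to 0.37), with 1.37 and 1.19 UMIs in each, and Psmb10 in 12.3% and 13.7% (-0.15, -0.54 to 0.23). Psmd14 was in 5.15% and 5.32% of cells (-0.05, -0.68 to 0.56), with 2.05 and 1.34 UMIs in each, so its direction turned when cells were counted. Psmc6 was in 4.34% and 3.34% (0.38, -0.35 to 1.099). Psme4 was in 2.71% and 4.33% (-0.68, -1.51 to 0.10), and Psmd6 in 2.03% and 3.43% (-0.75, -1.72 to 0.14).

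Core and regulatory particle genes, summed, were seen in most thinned cells of both libraries, immunoproteasome genes in fewer. After thinning, the share with a core UMI was 82.5% in the Treg library (79.6 to 85.2%) and 82.1% in the Tconv library (79.7 to 84.3%), against 88.2% and 87.7% before it. An immunoproteasome UMI was present in 46.7% (43.1 to 50.4%) and 43.1% (40.1 to 46.0%), unthinned 62.4% and 54.8%. For PA28 alpha and beta the shares were 47.2% (43.5 to 50.8%) and 51.0% (48.0 to 54.0%), and for the regulatory particle 62.2% and 62.8%. In thinned cells the intervals of the libraries overlapped in each group. Before thinning, where depth was not made equal, those of the immunoproteasome genes did not (59.0 to 65.7% in Treg and 52.0 to 57.5% in Tconv cells). No cell type that lacks proteasomes exists to give a background for these shares. A Treg cell held 2.20 ± 1.87 core UMIs (mean and SD over 738 cells) and a Tconv cell 2.01 ± 1.72 (over 1108 cells), with at most 13 and 10. The variance over the mean was 1.59 and 1.47 for the core and 1.35 and 1.11 for the immunoproteasome genes, where 1 is pure counting noise.

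**Figure D4:**
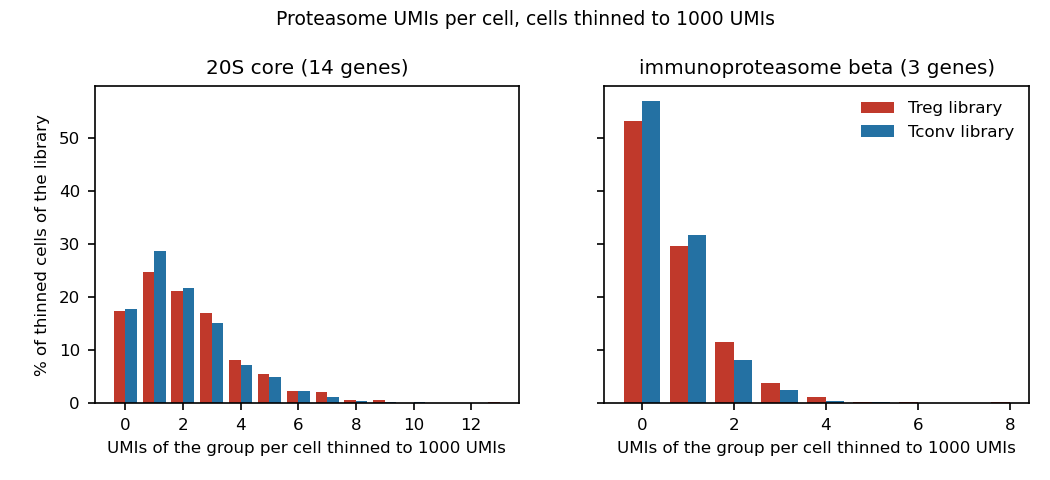
Bars give the % of thinned cells of each library by the number of UMIs they held of the 14 core genes (left) or the 3 immunoproteasome genes (right). The distributions of the libraries overlap along their whole length, and no second mode separates cells with many proteasome UMIs.

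Joint variation of the subunits from cell to cell was not detectable at this depth. The variance of the summed core UMIs was 0.921 times the sum of the single genes' variances in Treg and 1.07 times in Tconv cells, where independent genes give 1. Pearson correlations over cells of core with regulatory particle UMIs were 0.01 in 738 Treg and 0.04 in 1108 Tconv cells, and of immunoproteasome with PA28 alpha and beta UMIs 0.05 and 0.03. Cells of a library share its preparation, the counts are sparse, and values this small are no finding. Core levels moved a little with depth: from the shallowest to the deepest of 4 equal sets of cells the core level went from 2077 to 2380 CPM in Treg and from 1837 to 2107 in Tconv cells, a ratio of 1.15 in both (1.03 to 1.28 and 1.04 to 1.27). For the regulatory particle the ratio was 1.18 (1.02 to 1.38) in Treg and 0.959 (0.848 to 1.09) in Tconv cells, and for the immunoproteasome and PA28 genes the intervals included 1 in both libraries.

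Cells were then classed within each library by 6 lists (effector or memory, resting, growth, T cell receptor response, interferon response and proliferation), the top class being thinned cells at or above the smallest list count that at most 25% of cells reach. No list contains a proteasome gene. In the Tconv library, 246 cells held at least 6 list UMIs (70 of them exactly 6, and 89 cells 1 fewer), and their immunoproteasome level was 740 CPM against 538 in the other 862 cells (log2 0.46, 0.20 to 0.71). Psmb10 had 61 UMIs in the interferon-high and 127 in the other cells (0.75, 0.29 to 1.20), Psmb8 103 and 285 (0.34, 0.00 to 0.67, but -0.12 with cells thinned to 500) and Psmb9 18 and 52 (0.28, -0.58 to 1.08). In the Treg library, 158 cells held at least 10 list UMIs (26 exactly 10, and 34 cells 1 fewer), with 778 and 707 immunoproteasome CPM (0.14, -0.16 to 0.43). There the PA28 genes were higher, with 975 and 755 CPM (0.37, 0.09 to 0.64), against 0.14 (-0.09 to 0.35) in Tconv cells. With all UMIs of the same cells in place of the thinned ones, the immunoproteasome ratio was 0.30 (0.09 to 0.50) in Treg and 0.41 (0.21 to 0.60) in Tconv cells, and the PA28 ratio 0.37 (0.17 to 0.57) and 0.31 (0.14 to 0.47). That measure was chosen after seeing the data. With cells thinned to 500 UMIs the immunoproteasome ratio was -0.10 (-0.52 to 0.30) in Treg and 0.25 (-0.14 to 0.62) in Tconv cells, so the direction in Treg cells depends on the thinning. Whether the libraries differ in this was not tested. Median depth was 1652 and 1782 UMIs for interferon-high and other Treg cells, and 1624.5 and 1586.5 for Tconv cells.

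Between the libraries the interferon list itself was higher in Treg cells, at 6444 against 3830 CPM, and all 27 measured list genes were above 0 with a median log2 ratio of 0.47, beside 61.2% and 0.14 for all genes. Those values stand beside the higher Psmb8 and Psmb9 and the ratios near 0 of Psme1 and Psme2, and their part in them was not tested. Over single members, 25 of 39 were higher in interferon-high Treg cells, beside 49.3% of all genes, and 26 of 40 in interferon-high Tconv cells, beside 50.2%. Only members with at least 20 thinned UMIs in a library were counted, so the weakest are not among them. The inducible share of the pair Psmb10 and Psmb7 was 76.2% in interferon-high (61 of 80 UMIs, 65.4 to 85.1%) and 62.3% in other Tconv cells (127 of 204, 55.2 to 68.9%), and 66.7% and 67.1% in Treg cells. The intervals overlapped in each library.

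The effector or memory class held more core UMIs. In the Treg library its 161 cells had 2522 core CPM against 2106 in the other 577 cells (log2 0.26, 0.09 to 0.42), and 27 of 39 members were higher in them, beside 53.5% of all genes. In the Tconv library the core ratio was 0.12 (-0.02 to 0.26), with 26 of 40 members higher, beside 54.1%. The median depth of effector-high Treg cells was 1890 UMIs, against 1743 in the others. For the immunoproteasome genes the effector-high ratio was 0.21 (-0.09 to 0.50) in Treg cells, but -0.16 with cells thinned to 500, and 0.05 (-0.22 to 0.31) in Tconv cells. Resting-high cells had lower immunoproteasome values, with 603 and 759 CPM in the Treg library (-0.33, -0.65 to -0.02) and 502 and 601 in the Tconv library (-0.26, -0.58 to 0.05), beside core ratios of -0.12 (-0.29 to 0.05) and 0.03 (-0.13 to 0.19). In the Treg library they also held fewer regulatory particle UMIs (-0.33, -0.57 to -0.09), but this turned to 0.21 with cells thinned to 500. The median depth of resting-high Treg cells was 1601 UMIs, against 1796 in the others. Markers of another cell type were carried by 7.47% of them, against 4.79% of the others, and the part of depth and markers was not tested. Tconv cells high in receptor-response genes such as Nr4a1 and Egr1 had 2311 core CPM against 1929 (0.26, 0.12 to 0.40), which turned to -0.06 with cells thinned to 500, and the Treg ratio was 0.13 (-0.03 to 0.29). Growth genes, which drive ribosome production, went with 15 of 39 members higher in Treg cells, beside 46.4%, and 25 of 40 in Tconv cells, beside 47.7%. The regulatory particle ratio was 0.23 (0.02 to 0.43) in growth-high Tconv cells and -0.09 (-0.33 to 0.15) in growth-high Treg cells. In proliferation-high Treg cells it was 0.28 (0.04 to 0.52), but -0.12 with cells thinned to 500, and in proliferation-high Tconv cells -0.01. Within the Treg library, 74 cells with at least 2 Foxp3 UMIs were compared with the others, and the interval included 0 in every group, the core ratio being 0.08 (-0.16 to 0.31) and the immunoproteasome ratio -0.11 (-0.56 to 0.32).

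**Figure D5:**
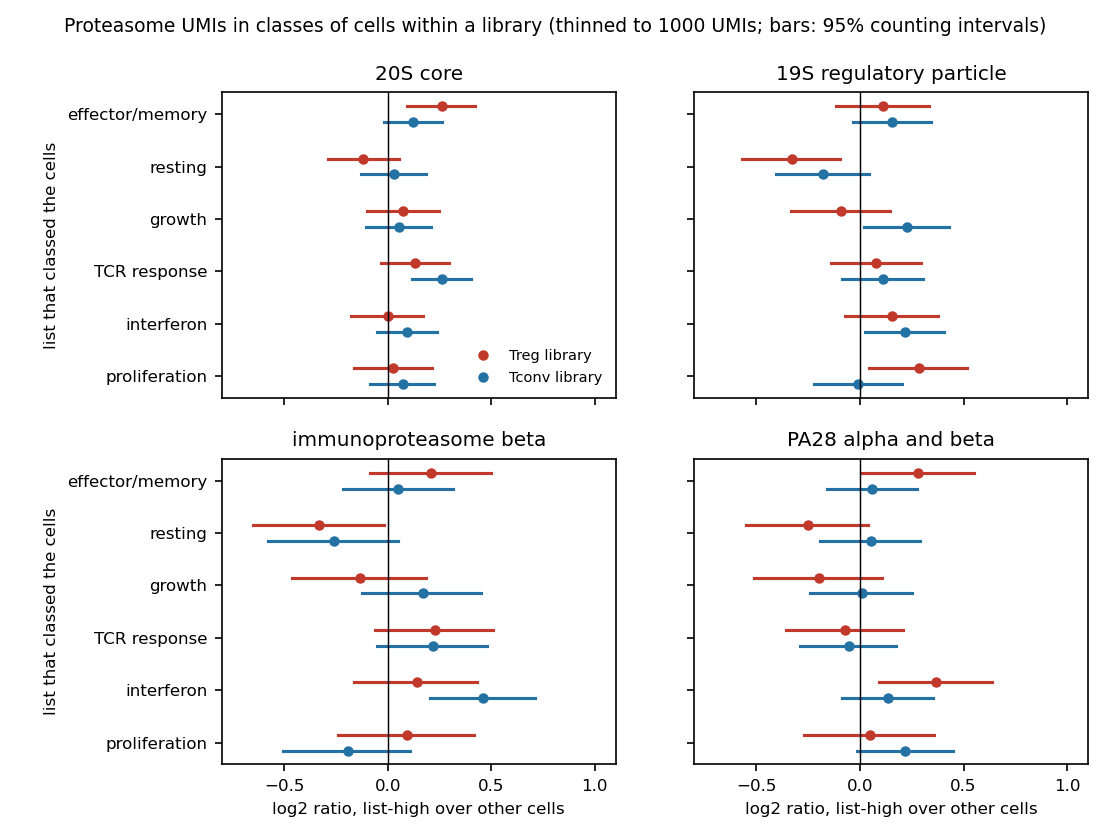
Each point is the log2 ratio of a group's UMIs in cells high in a list over the other cells of the same library, thinned to 1000 UMIs, with its 95% counting interval. The immunoproteasome genes are lowest in resting-high cells of both libraries, at -0.33 and -0.26, and highest in interferon-high Tconv cells, at 0.46.

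The genes that build, feed and regulate the proteasome had ratios in both directions, and their counts above 0 are to be read beside 61.2% of all genes and an all-gene median of 0.14. Of the 6 core assembly genes, 4 were above 0 (median log2 0.30): Psmg2, a chaperone of the alpha ring, was highest with 165 and 124 UMIs (0.86, 0.52 to 1.21) and its partner Psmg1 lowest with 21 and 39 (-0.45, -1.28 to 0.36). Of 2 subunits with other names, the lid gene Shfm1 was at 0.54 (478 and 449 UMIs) and the ubiquitin receptor Adrm1 at -0.18. Among the 6 measured deubiquitinating and regulating partners the median was 0.15, Ube3c being highest (0.34) and Uchl5, a deubiquitinase of the base, lowest with 18 and 50 UMIs (-1.03, -1.89 to -0.22). Of the 9 shuttle and segregase genes 5 were above 0 (median 0.01), with Vcp, the ATPase that extracts ubiquitinated proteins, highest (453 and 397 UMIs, 0.64, 0.44 to 0.84) and Ubqln2 lowest (20 and 45, -0.72, -1.56 to 0.07).

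Ubb, a stress-responsive polyubiquitin gene, had 241 and 167 UMIs (log2 0.98, 0.69 to 1.27), and Rps27a, which encodes ubiquitin fused to a ribosomal protein, was lower in the Treg library (-0.32), as ribosomal protein genes were there. Of 8 measured E1 and E2 enzymes 5 were above 0 (median 0.25), a share close to the 61.2% of all genes, from Cdc34 (73 and 134 UMIs, -0.43) to Ube2l3 (358 and 314 UMIs, 0.64). Of 6 measured transcription regulators of proteasome genes 3 were above 0. Nfe2l2, a factor that acts through antioxidant response elements, had 44 and 144 UMIs (-1.26, -1.78 to -0.77), Mafg was at -0.63 with 9 and 19 UMIs, and Mafk at 0.77 with 15 and 12. Of the 12 class I loading genes, 10 were above 0 (median 0.46, beside 0.14 for all genes). Nlrc5, the activator of class I and immunoproteasome genes, was highest with 109 and 69 UMIs (1.11, 0.66 to 1.56), H2-K1 stood at 0.61, and Erap1, the peptide trimming enzyme, was lowest with 27 and 43 (-0.22, -0.97 to 0.50).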

How the data were processed

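The authors deposited 1 table of UMI counts per gene and cell, and every value starts from these deposited counts, whose whole numbers sum to different totals per cell. Per the submitters' processing notes, TopHat2, SAMtools and the mm10 build were used; for the annotation, the UMI counter, cell filters and strand, the step is not given in the sources used here. Counts were summed per library and scaled to counts per 1000000 UMIs in genes. Ratios have exact conditional intervals, levels exact Poisson intervals and shares exact Clopper-Pearson intervals, all at 95% (scipy 1.17.1, numpy 2.4.6), and the interval script was tested on simulated counts. With 1 library per group no test between groups was made. All cells were kept; scrublet, run through scanpy 1.11.5, marked 12 Treg cells (1.47%) and 41 Tconv cells (3.15%), left out only in an alternative. TMM factors came from edgeR 4.0.16, as a scaling only. Positions are from GENCODE M21 on GRCm38, the assembly also called mm10, and promoter windows from RefSeq on GRCm38.p6, found for 36 of 42 members. Near-identical copies were sought by comparing transcript ends. Named genes were the catalytic pairs, the activators, in each other group the highest, lowest and most counted member, members past 1.5-fold and, of each pathway list, its extremes and genes past 1.5-fold. The members and lists were chosen with earlier results of these data known. Results for some genes are not reported here.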

Additional observations from a re-analysis of the deposited data

How the results depend on the processing

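Values that changed with the processing are listed by setting; the cause of each change was not tested. With ribosomal protein genes left out of the totals, the log2 ratios were 0.087 for the alpha, -0.037 for the structural beta, 0.20 for the immunoproteasome and -0.16 for the PA28 alpha and beta sums, 0.048 for the core and -0.040 for the regulatory particle, the member median was -0.00064, and 2 members were at least 1.5-fold higher and 3 lower. With TMM factors the same sums were 0.062, -0.063, 0.18, -0.18, 0.023 and -0.065, the lid was at -0.12, the member median was -0.026 with 18 members above 0, and 2 members were 1.5-fold higher and 3 lower. These scalings move every gene alike. Members at least 1.5-fold higher numbered 2 with equal weight per cell, 8 after thinning to 1000 UMIs and 3 without cells that carry other types' markers. Members at least 1.5-fold lower numbered 2 after thinning, 2 without cells above 2 times the median UMIs, 2 without scrublet doublets and 2 with no minimum but 1 UMI in each library. Thinning put the regulatory particle at 0.20 and PA28 gamma at 0.67. Counting cells that hold the gene put Psmd14 at -0.048, an alternative chosen after seeing the data, as were class levels from unthinned UMIs, which changed the direction of no class ratio whose interval excluded 0.

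The share of cells with a UMI follows the thinning depth by construction. For core, regulatory particle, immunoproteasome and PA28 genes it was 59.8%, 37.6%, 28.4% and 29.3% of Treg and 57.5%, 40.6%, 24.9% and 30.4% of Tconv cells at 500 UMIs. At 1500 UMIs it was 91.2%, 78.1%, 61.2% and 60.8% of Treg and 90.4%, 77.9%, 58.6% and 62.9% of Tconv cells. Unthinned, it was 88.2%, 74.4%, 62.4% and 60.9% of Treg and 87.7%, 75.2%, 54.8% and 60.8% of Tconv cells. Correlations over Tconv cells were -0.035 for core with immunoproteasome at 500 UMIs, and at 1500 UMIs 0.11 for core and -0.0496 for immunoproteasome with the regulatory particle.

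Class ratios rest on few UMIs and were the least stable. At 500 UMIs, Treg cells gave -0.16 (immunoproteasome, effector-high), 0.21 (regulatory particle, resting-high), 0.27 (PA28, growth-high), -0.35 (regulatory particle, receptor-response-high), and -0.41 (core) and -0.12 (regulatory particle) in proliferation-high cells. Tconv cells gave 0.54 (regulatory particle, effector-high), -0.43 (regulatory particle, resting-high), -0.061 (core, receptor-response-high), -0.12 (Psmb8, interferon-high) and 0.13 (immunoproteasome, proliferation-high). With the top class set at 10% of cells, Treg cells gave 0.46 (core) and 0.36 (regulatory particle) in effector-high, -0.018 (regulatory particle, resting-high), 0.30 (core) and -0.47 (regulatory particle) in growth-high, and -0.26 (immunoproteasome, proliferation-high). Tconv cells gave 0.44 (regulatory particle) and -0.26 (immunoproteasome) in effector-high, 0.28 (PA28, growth-high), -0.21 (immunoproteasome) and -0.47 (PA28) in receptor-response-high, 0.72 (immunoproteasome) and 0.49 (PA28) in interferon-high, and 0.28 (core, proliferation-high). No paired analysis was possible because there is 1 library per group.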
